A study of Mus musculus with 6 samples.

Results

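Transcripts of the unfolded protein response and of the integrated stress response were followed in mouse gingiva through 33 genes, taken by symbol from the 48709 genes of the count table. They comprise 14 chaperones and folding enzymes of the endoplasmic reticulum (ER), 5 stress sensors and transcription factors, 6 targets of the factor Atf4, and 8 genes of ER-associated degradation (ERAD) and of the entry channel into the ER. All 33 had enough reads to be tested, the sparsest being Derl3 with 378 counts over the Plg KO libraries and 236 over the Plg WT libraries. The mice were C57BL/6 animals of 12 weeks. The group labelled Plg KO lacks plasminogen, the precursor of the fibrin-dissolving protease plasmin, and the group labelled Plg WT consists of their wild-type littermates. Each group had 3 RNA sequencing libraries made from total RNA of gingiva, the mucosa around the teeth. The 3 libraries of a group are numbered 1 to 3. The labels name neither the Plg allele nor further transgenes or treatments. Whether every library stands for its own mouse is not recorded either, and the p-values below measure library-to-library spread, of which a part may be technical.

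Gene counts per library were 26183389 to 36429150 in Plg KO and 28184139 to 36006829 in Plg WT. Plg itself had 2 counts in Plg KO 1, 2 in Plg WT 3 and 0 elsewhere, so it gives no check of the genotype labels. Keratinocyte transcripts marked the tissue as labelled, with Krt14, a keratin of basal epithelium, at 13590 to 15964 CPM in Plg KO and 14911 to 16724 CPM in Plg WT (CPM, a gene's share of all counts after TMM normalization of the libraries). In bulk tissue, fewer cells of a type and less RNA per cell cannot be told apart. Markers of other tissues differed between libraries. The summed level of 13 salivary gland markers was 1226, 1305 and 1717 CPM in Plg KO 1, 2 and 3, against 1646, 473.8 and 314.9 CPM in Plg WT 1, 2 and 3. The 7 skeletal muscle markers summed to 2340, 9058 and 10820 CPM in Plg KO 1, 2 and 3, against 10300, 5457 and 6618 CPM in Plg WT 1, 2 and 3. Plg WT 1 thus resembled the Plg KO libraries in its gland transcripts, and Plg KO 1 had the least muscle. The Y-linked Ddx3y had 1838 counts in Plg KO 1 and 1475 in Plg WT 3, where Xist, the RNA of the inactive X chromosome, had 2 and 10 counts. The other 4 libraries had at most 2 counts of Ddx3y and 917 to 1129 of Xist, so the 3 libraries of a group did not all come from 1 animal. The 8 neutrophil markers summed to 176 to 535.7 CPM in Plg KO and 38.7 to 72.5 CPM in Plg WT. Of these, 7 were tested and 2 were called higher in edgeR's test (0.191% of all tested genes). All 7 were under an unadjusted p of 0.05 in that test with a positive sign (4.97% of all tested genes). In all 7 the Plg KO libraries lay above all Plg WT libraries (7.51%). The 6 fibroblast markers summed to 1387 to 2552 CPM in Plg KO and 2175 to 3678 CPM in Plg WT. All 6 fibroblast markers had a negative log2 difference (median -0.47), and 0 were called (0.237% of all tested genes). Under an unadjusted p of 0.05 in edgeR's test were 3 (4.27% of all tested genes with a negative sign). In Pdgfra and Dcn all Plg KO libraries lay below all Plg WT libraries (7.18% of all tested genes). The 8 plasma cell markers summed to 400 to 487.3 CPM in Plg KO and 448.7 to 518.8 CPM in Plg WT, nearly all of it Sdc1, which epithelium also expresses. Jchain, the joining chain of secreted antibodies, had 0.378, 0.155 and 12.0 CPM in Plg KO, against 4.75, 6.85 and 3.17 CPM in Plg WT. Mzb1 and Pou2af1, also on this list, were highest in Plg WT 1, and the other tested plasma cell markers were highest in other libraries. In 0 of the 7 plasma cell markers tested were Plg WT 2 and 3 the lowest libraries (12.8% of all tested genes). With so few genes, a count of 0 does not set the list apart from that share. The part of these cell types in the results below was not tested.

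As background, secretory and membrane proteins fold in the ER, and when folding falls behind, 3 sensors in its membrane respond. Ern1 splices the mRNA of Xbp1, Atf6 is cut to release a transcription factor, and Eif2ak3 phosphorylates the initiation factor eIF2, which slows translation in general while raising that of Atf4. Xbp1 and Atf6 drive genes for chaperones and ERAD, whereas Atf4 drives genes for amino acid supply, redox balance and, with Ddit3, cell death. Other eIF2 kinases feed into Atf4 as well, for example when amino acids are short, and this shared arm is the integrated stress response. Gland cells and plasma cells, which secrete heavily, keep these genes high without injury.

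Of the 33 genes, edgeR's quasi-likelihood test called 0 in gingiva without Plg at a Benjamini-Hochberg adjusted p under 0.05, against 42 of 17757 tested genes (0.237%), of which 34 were higher (0.191%) and 8 lower (0.0451%). The lowest adjusted p among them was 0.180, for Asns. At an unadjusted p under 0.05 there were 4 with a positive log2 difference (4.97% of all tested genes) and 0 with a negative one (4.27% of all tested genes, 9.25% in both directions together). These 4 were Asns, Pdia3, Edem1 and Derl3. DESeq2 called 1 member, Asns (adjusted p = 0.0237), and limma-voom called 0. Over all genes DESeq2 also called many more than edgeR did, with the counts given in the last section. All 3 Plg KO libraries lay above all 3 Plg WT libraries in 5 members (7.51% of all tested genes), which were Pdia3, Pdia4, Pdia6, Asns and Derl3, and below them in 0 (7.18%). The differences were small. The median log2 difference, Plg KO over Plg WT, was 0.16 over the members and -0.0043 over all tested genes, and 28 members had a positive sign (49.2% of all tested genes). For 28 members the 95% interval of the fold lay between 0.5 and 2. For Dnajc3, Ern1, Eif2ak3, Herpud1 and Derl3 it reached past 2-fold, so a change of that size lay within the error.

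**Figure D1:**
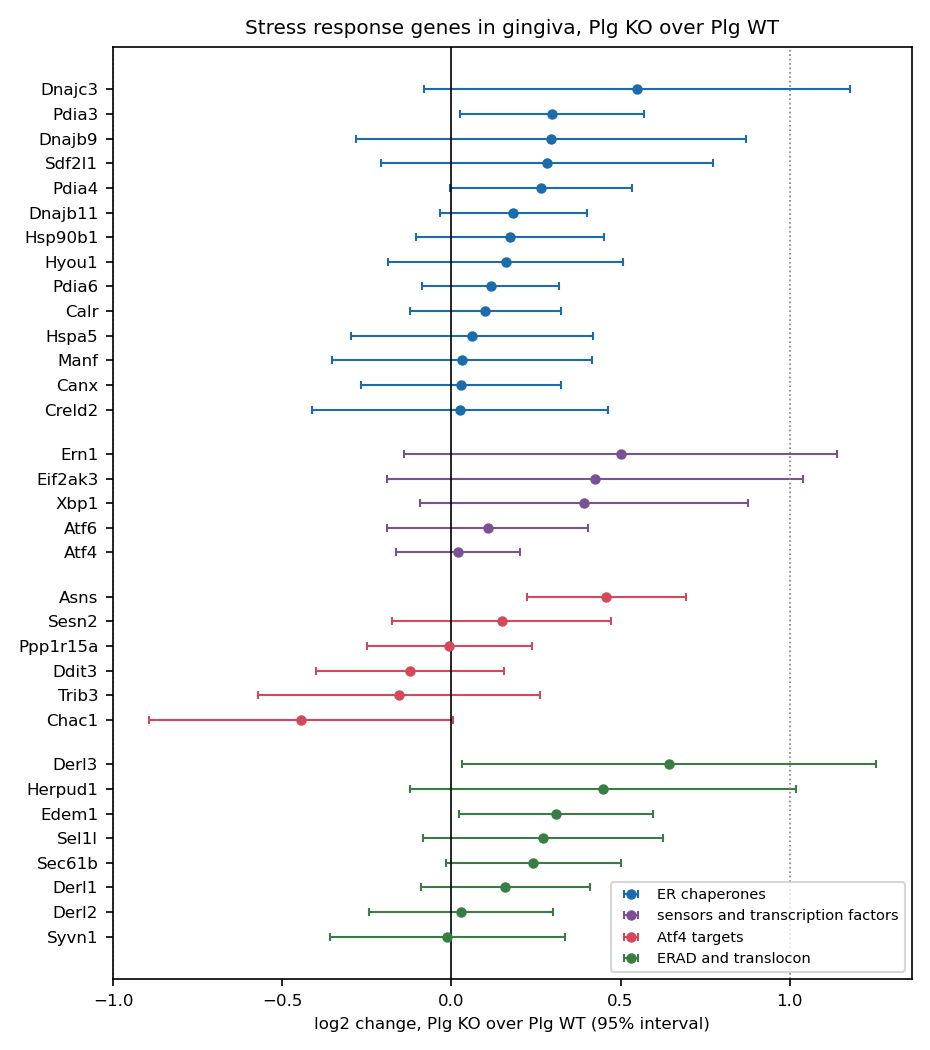
Log2 difference of each of the 33 genes, Plg KO over Plg WT, with its 95% interval from edgeR's quasi-likelihood fit (3 libraries a group), in 4 blocks by role. Dotted lines mark a 2-fold difference. Points run from -0.45 for Chac1 to 0.64 for Derl3, and all 14 chaperones lie right of 0, from 0.026 to 0.55.

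The chaperones are known for a shared promoter element, the ER stress response element (ERSE), and several Atf4 targets for the CARE, a composite site of C/EBP and Atf factors. Promoter windows of RefSeq on GRCm38.p6, from 250 bases before to 50 after a start, existed for 29 of the 33 members. The ERSE letters (CCAAT, 9 open bases, CCACG), searched on both strands, were found in windows of 7 of 12 chaperones (58.3%), in 2 of 7 ERAD and translocon genes, in 0 of 6 Atf4 targets and in 0 of 4 sensors and factors. Over all genes with a window they were found in 37 of 27025 (0.137%). The shorter ERSE-II (ATTGG, 1 open base, CCACG) was found in Dnajb11 and Herpud1 and in 12 of all 27025 genes (0.0444%). The CARE core TGATGNAA was found in 3 of 6 Atf4 targets, Asns, Chac1 and Trib3, in 0 of 12 chaperones, in Herpud1 and in 1219 of all 27025 genes (4.51%). The core TGACGTGG of another element, the UPRE, was found in 0 of the 29 and in 193 of all 27025 genes (0.714%). No ERSE-II match overlapped an ERSE. These are matches of letters, with no measurement of binding. The matched sites are shown so that the elements of both classes can be compared, with fixed letters in capitals and open positions in lower case, written in the direction of the motif.
Hspa5 ERSE: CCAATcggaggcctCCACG
Hsp90b1 ERSE, distal: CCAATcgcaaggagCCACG
Hsp90b1 ERSE, proximal: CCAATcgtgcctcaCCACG
Calr ERSE: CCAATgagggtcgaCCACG
Canx ERSE: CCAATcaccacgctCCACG
Pdia6 ERSE: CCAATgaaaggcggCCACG
Creld2 ERSE: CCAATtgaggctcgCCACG
Dnajc3 ERSE: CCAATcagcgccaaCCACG
Derl3 ERSE: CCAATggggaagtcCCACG
Syvn1 ERSE: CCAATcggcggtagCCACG
Dnajb11 ERSE-II: ATTGGcCCACG
Herpud1 ERSE-II: ATTGGgCCACG
Herpud1 CARE: TGATGcAA
Asns CARE: TGATGaAA
Chac1 CARE: TGATGcAA
Trib3 CARE: TGATGtAA

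The 250 bases before the RefSeq start are printed for 4 genes that the results below turn on. They are Hspa5, the best-known chaperone, Herpud1, the member with the highest level per length, and Asns and Chac1, the Atf4 targets with the highest and the lowest log2 difference. Each reads 5′ to 3′ along the gene, with fixed letters of a match in capitals (a match on the opposite strand shows as its complement). The regions are chr2:34771840-34772089 (plus strand) for Hspa5, chr8:94386179-94386428 (plus) for Herpud1, chr6:7693210-7693459 (minus) for Asns and chr2:119350992-119351241 (plus) for Chac1. GENCODE M21 places an earlier start for 3 of them, so that 120 bases of the Hspa5 stretch, 45 of Asns and 13 of Chac1 lie within the GENCODE gene.
Hspa5: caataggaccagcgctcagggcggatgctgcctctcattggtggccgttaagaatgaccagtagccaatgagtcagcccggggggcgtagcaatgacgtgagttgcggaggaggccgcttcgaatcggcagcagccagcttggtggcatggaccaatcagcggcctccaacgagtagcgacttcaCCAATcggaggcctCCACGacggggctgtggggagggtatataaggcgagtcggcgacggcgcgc
Herpud1: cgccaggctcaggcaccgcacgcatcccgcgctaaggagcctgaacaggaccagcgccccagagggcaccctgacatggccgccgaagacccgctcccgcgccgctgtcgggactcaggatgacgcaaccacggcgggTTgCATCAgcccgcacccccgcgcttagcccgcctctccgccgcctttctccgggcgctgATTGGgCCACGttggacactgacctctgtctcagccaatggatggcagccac
Asns: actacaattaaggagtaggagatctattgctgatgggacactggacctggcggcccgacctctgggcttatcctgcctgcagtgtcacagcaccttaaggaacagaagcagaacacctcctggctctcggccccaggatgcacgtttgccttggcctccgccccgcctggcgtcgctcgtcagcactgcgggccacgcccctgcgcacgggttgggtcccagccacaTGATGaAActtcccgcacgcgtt
Chac1: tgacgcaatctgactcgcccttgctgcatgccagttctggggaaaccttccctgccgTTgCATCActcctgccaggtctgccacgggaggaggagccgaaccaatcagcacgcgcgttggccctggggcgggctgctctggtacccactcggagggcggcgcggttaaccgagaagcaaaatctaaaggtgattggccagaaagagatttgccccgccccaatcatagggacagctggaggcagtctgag

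Among the chaperones, 14 of 14 had a positive log2 difference (49.2% of all tested genes). Of the 14, 0 were called and 1, Pdia3, was under an unadjusted p of 0.05 (4.97% of all tested genes in that direction). Their median was 0.17. Hspa5 (BiP, ENSMUSG00000026864, GRCm38 chromosome 2, 34771970 to 34777547), the abundant Hsp70 of the ER lumen that also holds the sensors inactive, had 913, 617 and 708 CPM in Plg KO, against 736, 669.8 and 739 CPM in Plg WT. The groups overlapped, with Plg KO 1 highest and Plg KO 2 lowest. The log2 difference of Hspa5 was 0.06 ± 0.15 (SE, n = 3 each), with a 95% interval of 0.81-fold to 1.34-fold. Hsp90b1, the Hsp90 of the ER, had 385, 315 and 305 CPM in Plg KO and 301, 275 and 315 CPM in Plg WT. The lectin chaperones Calr and Canx, which retain glycoproteins until they are folded, had log2 differences of 0.10 ± 0.10 and 0.03 ± 0.13. In exon length terms Hspa5 stood at 176 CPM per kb in Plg KO and 169 CPM per kb in Plg WT, and Canx at 159.9 and 157 CPM per kb.

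Of the 14 chaperones, 3 had all Plg KO libraries above all Plg WT libraries (7.51% of all tested genes). These were disulfide isomerases, which form and reshuffle disulfide bonds. Of isomerases that are no members, P4hb also had groups apart. Pdia5 and Txndc5 overlapped, with Plg WT 1 above every Plg KO library. Pdia3 (ENSMUSG00000027248, chromosome 2, 121413775 to 121438687) had 542, 508 and 515 CPM in Plg KO, against 489, 385 and 399 CPM in Plg WT, with 0.30 ± 0.12 as log2 difference (adjusted p = 0.482). Pdia4 had 235, 222 and 229.8 CPM in Plg KO, against 215, 164 and 192 CPM in Plg WT. Pdia6 had 347, 357 and 342 CPM in Plg KO, against 332, 302 and 331 CPM in Plg WT. In each of the 3 enzymes the lowest Plg KO library exceeded the highest Plg WT library, which was Plg WT 1. The adjusted p was 0.551 for Pdia4 and 0.755 for Pdia6.

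The Hsp40 co-chaperones pass unfolded clients to Hspa5. Dnajc3 (p58IPK, ENSMUSG00000022136, chromosome 14, 118937976 to 118981697), which also inhibits the eIF2 kinases, had 116, 126 and 134 CPM in Plg KO, against 128, 69.8 and 59.2 CPM in Plg WT. Plg WT 1 lay among the Plg KO libraries, and Plg WT 2 and 3 far below. The log2 difference of Dnajc3 was 0.55 ± 0.27 (adjusted p = 0.611), and 0.96 ± 0.12 (adjusted p = 0.0301) without Plg WT 1. Over 14 alternatives its adjusted p ran from 0.0301 to 0.954. Dnajb9, which recruits Hspa5 to Ern1, had 10.1, 6.95 and 9.72 CPM in Plg KO and 9.66, 6.71 and 5.48 CPM in Plg WT. Dnajb11 had 89.2, 84.0 and 86.6 CPM in Plg KO and 84.0, 73.7 and 71.1 CPM in Plg WT.

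A second group of chaperones was set apart by 1 library. Sdf2l1, a partner of the Hspa5 cycle, had 46.3, 26.4 and 29.3 CPM in Plg KO, against 30.4, 27.1 and 26.5 CPM in Plg WT. Creld2, a Cys-rich folding factor, had 157, 100.2 and 103 CPM in Plg KO, against 122, 104 and 128 CPM in Plg WT. Manf, a secreted ER-resident factor, had 136, 89.1 and 96.7 CPM in Plg KO, against 112, 97.5 and 106 CPM in Plg WT. Plg KO 1 was the highest of all 6 libraries for each of these, and the other Plg KO libraries lay below every Plg WT library in Creld2 and Manf. Hyou1, a large Hsp70 relative that serves as nucleotide exchange factor for Hspa5, had 54.3 CPM in Plg KO 1, 41.1 and 37.1 CPM in Plg KO 2 and 3, and 37.7 to 42.1 CPM in Plg WT. In all, Plg KO 1 was the highest library in 12 of the 14 chaperones (16.4% of all tested genes). Without Plg KO 1, 8 chaperones had a positive and 6 a negative log2 difference, and the median was 0.039. Hspa5 then had a log2 difference of -0.11, Creld2 -0.22 and Manf -0.18. Plg KO 1 was also the library with the least skeletal muscle transcript and the one Plg KO library with Y-linked transcript, and the part of either in its chaperone level was not tested.

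**Figure D2:**
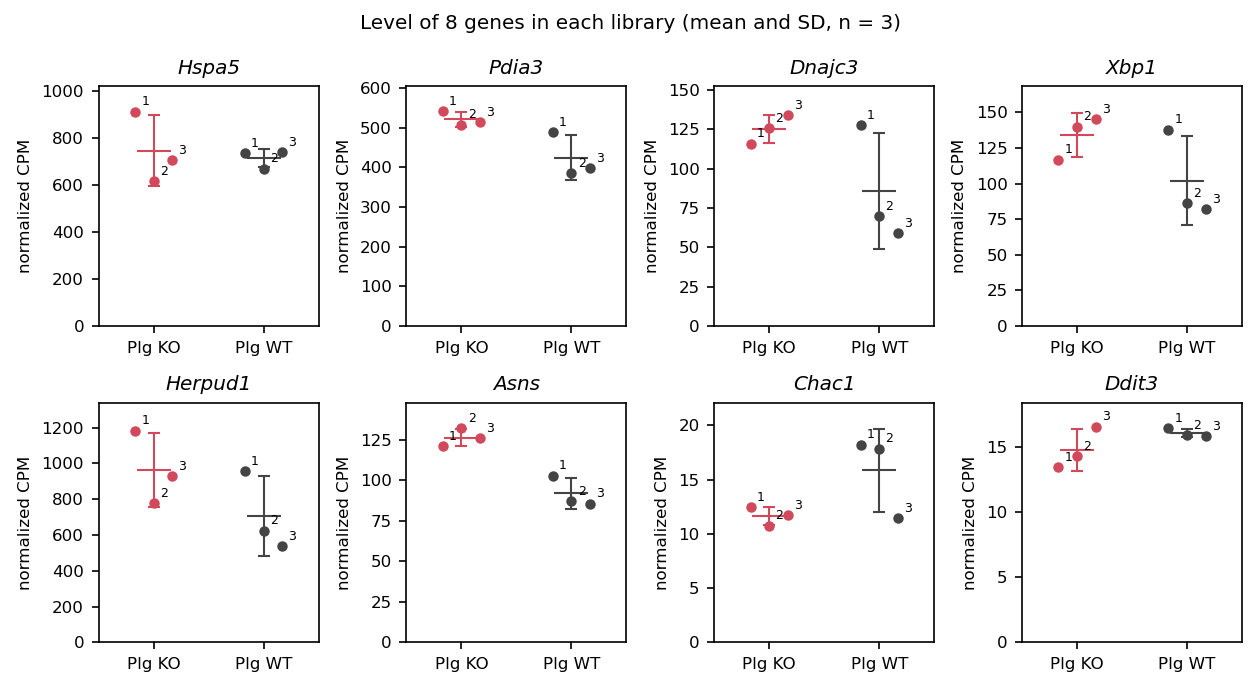
Level in normalized CPM of 8 genes in each library, numbered 1 to 3, with the mean (horizontal line) and SD (error bar) of each group. Asns and Pdia3 separate the groups, Dnajc3, Xbp1 and Herpud1 have Plg WT 1 among or near the Plg KO libraries, and Hspa5 has Plg KO 1 alone, at 913, well above the others.

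None of the 5 sensors and transcription factors was under an unadjusted p of 0.05 (9.25% of all tested genes). All 5 log2 differences were positive (49.2% of all tested genes), with a median of 0.39. Ern1 (IRE1, ENSMUSG00000020715, chromosome 11, 106394650 to 106487852) had 5.37, 6.45 and 7.23 CPM in Plg KO, against 6.33, 3.86 and 3.24 CPM in Plg WT. Eif2ak3 (PERK) had 8.395, 9.28 and 11.2 CPM in Plg KO, against 10.1, 5.14 and 6.25 CPM in Plg WT. Xbp1 had 117, 139.96 and 146 CPM in Plg KO, against 138, 86.1 and 82.3 CPM in Plg WT. In these 3 genes Plg WT 2 and 3 were the lowest libraries, and Plg WT 1 lay inside the Plg KO range. Their log2 differences were 0.50 ± 0.27 for Ern1, 0.42 ± 0.26 for Eif2ak3 and 0.39 ± 0.21 for Xbp1. Without Plg WT 1 they were 0.84 for Ern1, 0.76 for Eif2ak3 and 0.67 for Xbp1, with adjusted p of 0.132, 0.139 and 0.0602. The lowest values without a single library were 0.31 for Ern1 and 0.26 for Xbp1, both without Plg WT 3, and 0.24 for Eif2ak3 without Plg WT 2. Counts per gene do not separate spliced from unspliced Xbp1, so the activity of Ern1 was not measured. Atf6 had 15.01, 17.2 and 18.7 CPM in Plg KO and 16.9, 15.9 and 14.4 CPM in Plg WT. Atf4 was the steadiest member, with 161, 159 and 158 CPM in Plg KO and 163, 156 and 152 CPM in Plg WT. Its log2 difference of 0.02 ± 0.08 has a 95% interval of 0.89-fold to 1.15-fold. Atf4 is controlled mainly at translation, which RNA counts do not show.

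The 6 Atf4 targets were split in sign, with 2 positive and 4 negative log2 differences and a median of -0.064. Asns (asparagine synthetase, ENSMUSG00000029752, chromosome 6, 7675169 to 7693254), which makes asparagine when amino acids are short, had 121, 132 and 126 CPM in Plg KO, against 103, 87.3 and 85.7 CPM in Plg WT. The lowest Plg KO library exceeded the highest Plg WT library. The log2 difference of Asns was 0.46 ± 0.10 (adjusted p = 0.180), a fold of 1.37 with a 95% interval of 1.17 to 1.62. It passed the threshold with DESeq2 (adjusted p = 0.0237) and without Plg WT 1 (adjusted p = 0.0455), and its adjusted p ran from 0.0237 to 0.615 over 14 alternatives. Its log2 difference stayed between 0.41 and 0.55 in them.

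Chac1 (ENSMUSG00000027313, chromosome 2, 119351229 to 119354381), which breaks down glutathione, lay on the other side. Chac1 had 12.4, 10.8 and 11.7 CPM in Plg KO, against 18.2, 17.9 and 11.5 CPM in Plg WT. Plg WT 3 lay within the Plg KO range and the other Plg WT libraries above it. The log2 difference was -0.45 ± 0.19 (adjusted p = 0.544). Ddit3 (CHOP), the factor linked to death under lasting ER stress, had 13.4, 14.3 and 16.6 CPM in Plg KO, against 16.4, 15.9 and 15.8 CPM in Plg WT, a log2 difference of -0.12 ± 0.12. Trib3, a pseudokinase that restrains Atf4, had 14.4, 22.4 and 17.96 CPM in Plg KO and 17.7, 22.3 and 20.9 CPM in Plg WT. Sesn2, a leucine sensor that lowers mTORC1 activity, had 11.8, 10.8 and 9.80 CPM in Plg KO and 10.8, 8.89 and 9.48 CPM in Plg WT. Ppp1r15a (GADD34), which brings a phosphatase to eIF2 and so ends the response, had 22.3, 23.9 and 26.2 CPM in Plg KO and 25.3, 23.2 and 24.3 CPM in Plg WT. For all 6 targets the 95% interval lay between 0.5-fold and 2-fold.

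Chaperones and Atf4 targets were set against each other within each library, as the mean of log2(CPM + 0.5) over the 14 chaperones minus that over the 6 Atf4 targets. The difference was 3.03, 2.62 and 2.69 in Plg KO, against 2.65, 2.48 and 2.63 in Plg WT. Plg KO 1 was highest and Plg WT 2 lowest, and Plg KO 2 lay below Plg WT 1 and 3. The groups averaged 2.78 ± 0.22 in Plg KO and 2.58 ± 0.093 in Plg WT (SD, n = 3 each). Plg KO minus Plg WT was 0.20, against a pooled SD between libraries of 0.17, and 0.070 without Plg KO 1. The chaperone mean alone differed by 0.18 and the Atf4 target mean by -0.016. No p is given for these means, since they are scores over chosen genes.

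**Figure D3:**
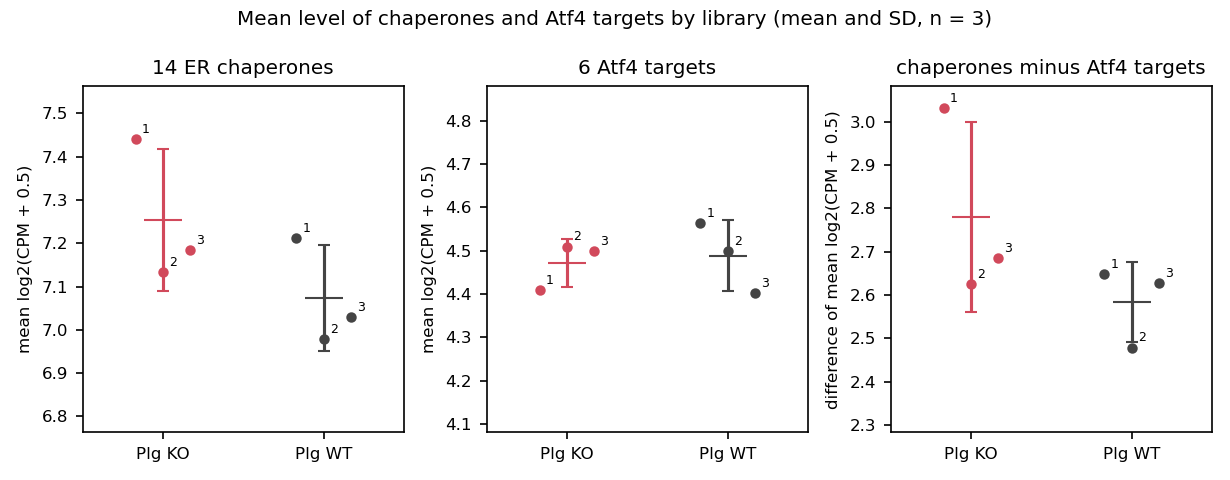
Mean log2(CPM + 0.5) per library over 14 chaperones and over 6 Atf4 targets, and the first minus the second, numbered by library with the group mean and SD. Each axis spans 0.8 log2 units and does not start at 0. Plg KO 1 stands at 3.03 in the difference, and the other 5 libraries lie between 2.48 and 2.69.

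ERAD returns misfolded proteins to the cytosol for degradation. Of its 8 members here, with the channel subunit Sec61b, 7 had a positive log2 difference (49.2% of all tested genes), with a median of 0.26. Of the 8, 0 were called and 2 were under an unadjusted p of 0.05 with a positive sign (4.97% of all tested genes). Herpud1 (ENSMUSG00000031770, chromosome 8, 94386438 to 94395377), an ERAD scaffold that the ER stress pathways induce strongly, had 1184, 778 and 930.0 CPM in Plg KO, against 958, 625 and 538 CPM in Plg WT. Plg KO 2 lay below Plg WT 1, so the groups overlapped. The log2 difference was 0.45 ± 0.24 (adjusted p = 0.646). It was 0.73 without Plg WT 1, 0.27 without Plg KO 1 and 0.28 without Plg WT 3. Per exon length Herpud1 was the highest member, at 413 CPM per kb in Plg KO and 303 CPM per kb in Plg WT, and Ern1 the lowest, at 0.777 and 0.547 CPM per kb.

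Edem1, which hands misfolded glycoproteins to the ERAD machinery, had 71.9, 61.5 and 67.2 CPM in Plg KO, against 62.1, 52.6 and 47.3 CPM in Plg WT, a log2 difference of 0.31 ± 0.12 (adjusted p = 0.488). Only the order of Plg KO 2 and Plg WT 1 kept its groups from separating. Derl3, a channel component known to be high in secretory cells, had 4.80, 3.26 and 3.25 CPM in Plg KO, against 3.03, 1.96 and 2.24 CPM in Plg WT, a log2 difference of 0.64 ± 0.26 (adjusted p = 0.505). Its relatives Derl1 and Derl2 had log2 differences of 0.16 ± 0.11 and 0.03 ± 0.12. Sel1l, the adaptor of the ubiquitin ligase Syvn1 (HRD1), had 63.2, 53.2 and 55.7 CPM in Plg KO, against 58.7, 42.1 and 41.9 CPM in Plg WT. Syvn1 itself had 40.4, 36.9 and 32.0 CPM in Plg KO and 43.7, 34.8 and 31.6 CPM in Plg WT, a log2 difference of -0.01 ± 0.15. Sec61b had 116, 125 and 134 CPM in Plg KO, against 119.8, 101 and 96.4 CPM in Plg WT, a log2 difference of 0.24 ± 0.11.

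A division among the Plg WT libraries ran through the genes. In 18 of the 33 members Plg WT 2 and 3 were the lowest of the 6 libraries, against 12.8% of all tested genes. This held for 6 chaperones, 4 sensors and factors, 2 Atf4 targets and 6 ERAD and translocon genes. In these 18, Plg WT 1 stood 4.91% to 98.0% above the mean of Plg WT 2 and 3, most in Dnajc3 (98.0%), Ern1 (78.6%), Eif2ak3 (77.4%), Herpud1 (64.7%) and Xbp1 (63.8%). The salivary gland markers ran the same way. Muc19, a gland mucin, had 202, 197 and 218 CPM in Plg KO, against 224, 85.2 and 43.7 CPM in Plg WT. Bhlha15 (Mist1), a factor of secretory acinar cells that Xbp1 induces, had 14.5, 14.96 and 17.2 CPM in Plg KO, against 19.6, 4.89 and 2.69 CPM in Plg WT. Of the 13 gland markers, 8 were tested, 7 had Plg WT 2 and 3 lowest, and Prol1 and Prb1 had 0 counts in every library. The part of gland tissue in the levels of the stress genes was not tested.

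Without Plg WT 1, edgeR's test called 2 members, Dnajc3 and Asns, both higher in Plg KO, against 219 of 17962 genes (1.22%), or 184 in that direction (1.02%). At an unadjusted p under 0.05 there were then 15 members with a positive log2 difference (8.62% of all tested genes) and 0 with a negative one (5.82%). These 15 were 5 chaperones, namely Pdia3, Pdia4, Dnajb9, Dnajb11 and Dnajc3, the factors Ern1, Eif2ak3 and Xbp1, the Atf4 target Asns, and Herpud1, Edem1, Sel1l, Derl1, Derl3 and Sec61b. Hspa5 (0.08 ± 0.17), Hsp90b1 (0.18 ± 0.13) and Atf4 (0.05 ± 0.08) were not among them. Without Plg WT 2 only Asns was under that p. Without Plg WT 3 there were 2, Asns with a positive log2 difference (0.41 ± 0.12, adjusted p = 0.419 in edgeR's test) and Chac1 with a negative one (-0.63 ± 0.13, adjusted p = 0.216). Over all genes, too, that p was met most often without Plg WT 1 among the fits without a single library (1548 higher, 1046 lower). These counts rest on which Plg WT libraries are kept, and the labels give no ground to leave 1 out.

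**Figure D4:**
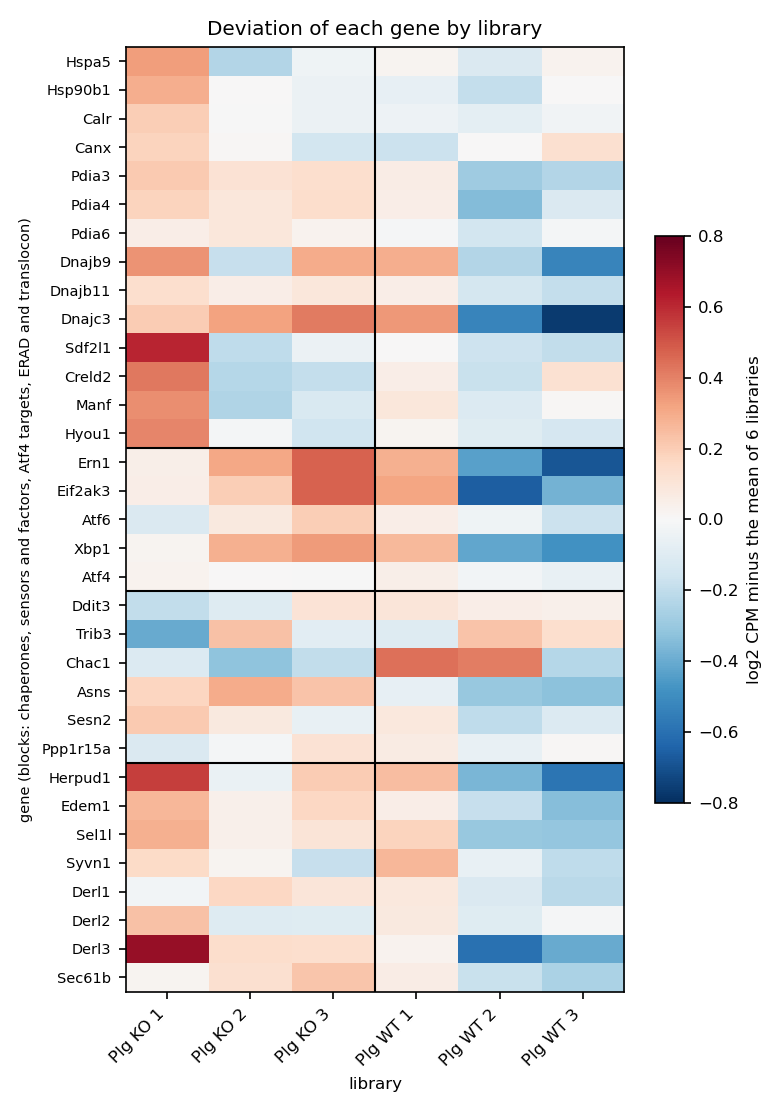
Log2 CPM of each gene minus its mean over the 6 libraries, from -0.8 (blue) to 0.8 (red), with genes in 4 blocks by role and the Plg KO libraries left of the Plg WT libraries. Dnajc3, Ern1, Eif2ak3, Xbp1 and Herpud1 are low in Plg WT 2 and 3 and not in Plg WT 1, while Sdf2l1, Creld2, Manf and Hyou1 are high in Plg KO 1.

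**Figure D5:**
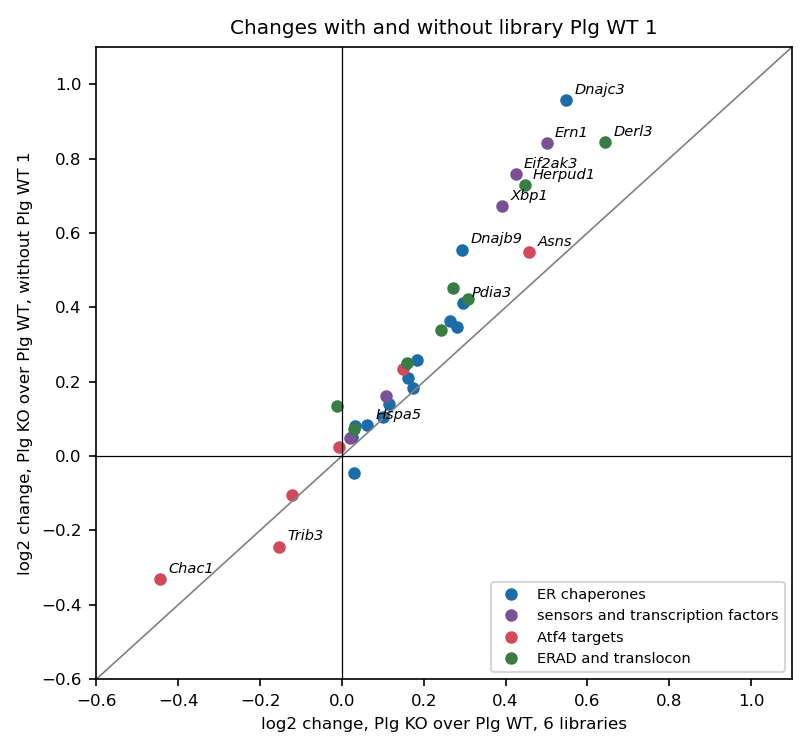
Log2 difference of each gene, Plg KO over Plg WT, in the fit of all 6 libraries (x axis) and in the fit without Plg WT 1 (y axis), coloured by role, with the line of equality. Dnajc3 moves the most, with 0.55 on the x axis and 0.96 on the y axis, whereas Hspa5 lies near 0 on both.

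Further genes of the pathway were read from lists chosen by role. Of 24 other ER folding factors 0 were called, and 8 were under an unadjusted p of 0.05 with a positive log2 difference and 0 with a negative one (4.97% and 4.27% of all tested genes). Their median log2 difference was 0.24. The 4 with the smallest p all had Plg KO above Plg WT. Ero1a, the oxidase that recharges disulfide isomerases, had 15.2 ± 1.49 CPM in Plg KO and 9.93 ± 1.92 CPM in Plg WT (adjusted p = 0.270). P4hb, the founding disulfide isomerase, had 1778 ± 83.9 CPM in Plg KO and 1439 ± 115 CPM in Plg WT (adjusted p = 0.429). Erp44 and Tmx1, thioredoxin-like proteins of the ER, had log2 differences of 0.29 ± 0.08 and 0.24 ± 0.08. In 15 of the 24, Plg WT 2 and 3 were the lowest libraries (12.8% of all tested genes). Without Plg WT 1, 3 of the 24 were called higher (1.02% of all genes tested without it) and 14 were under an unadjusted p of 0.05 with a positive sign (8.62%).

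Of 16 genes for the translocon and for signal peptide removal, all had a positive log2 difference (49.2% of all tested genes; median 0.26), 0 were called and 3 were under an unadjusted p of 0.05 with a positive sign (4.97% of all tested genes). Without Plg WT 1, 1 of the 16 was called higher (1.02% of all genes tested without it) and 9 were under that p with a positive sign (8.62%). Spcs3, a signal peptidase subunit, had 193 ± 20.2 CPM in Plg KO and 140.1 ± 20.03 CPM in Plg WT (adjusted p = 0.298). Tram1, Ssr2 and Ssr4, which assist translocation, had log2 differences of 0.31 ± 0.12, 0.30 ± 0.11 and 0.33 ± 0.14. In 11 of the 16, Plg WT 2 and 3 were the lowest (12.8% of all tested genes). Of 22 other ERAD factors 0 were called and 0 were under an unadjusted p of 0.05 (9.25% of all tested genes), with a median of 0.012. Without Plg WT 1, 1 of the 22 was called higher (1.02% of all genes tested without it). Under that p with a positive sign were 4 (8.62%), and the median was 0.075. In the fit of all libraries, those with the smallest p were Edem2 at 0.35 ± 0.18, Erlin2 at 0.20 ± 0.12, Erlin1 at -0.18 ± 0.12 and Rnf139 at 0.14 ± 0.10. Of 8 other membrane-bound stress factors 0 were called and 0 were under an unadjusted p of 0.05 (9.25% of all tested genes). Their median was 0.25. In the fit without Plg WT 1, 2 of the 8 were called higher (1.02% of all genes tested without it). Under that p were 6, all with a positive sign (8.62%), and the median was 0.34. Creb3l4 had 46.6, 49.6 and 73.0 CPM in Plg KO, against 63.6, 17.2 and 9.51 CPM in Plg WT, with Plg WT 2 and 3 lowest as in the gland markers. Atf6b, the relative of Atf6, had a log2 difference of -0.19 ± 0.10, Creb3l2 0.28 ± 0.14 and Creb3 0.21 ± 0.13.

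Of 27 further Atf4 targets 25 were tested, with 12 positive and 13 negative log2 differences and a median of -0.0018. None was called. Under an unadjusted p of 0.05 were 1 with a positive sign (4.97% of all tested genes) and 2 with a negative sign (4.27%). With Plg WT 1 left out, 1 of the 25 was called higher (1.02% of all genes tested without it). Under that p were then 7 with a positive sign (8.62%) and 2 with a negative sign (5.82%). The median was -0.040. Slc7a11, the cystine importer, had 28.8, 41.2 and 28.6 CPM in Plg KO, against 14.7, 16.4 and 15.2 CPM in Plg WT, a log2 difference of 1.09 ± 0.16 (adjusted p = 0.0665). The groups of Slc7a11 did not overlap, and the gene is also known as a target of Nrf2. Ddit4, an inhibitor of mTORC1, had a log2 difference of -0.62 ± 0.20 and Slc7a5, a leucine transporter, one of -0.41 ± 0.16. Mthfd2, a mitochondrial folate enzyme, had one of 0.35 ± 0.16. Fgf21 and Gdf15 were too sparse to test, with 2 and 15 counts over Plg KO and 5 and 18 over Plg WT. Of 12 tRNA synthetases that Atf4 is known to drive, 0 were called. None was under an unadjusted p of 0.05 (9.25% of all tested genes). The median was -0.014, with a range from -0.15 for Eprs to 0.11 for Gars. Wars and Mars1 had log2 differences of -0.13 ± 0.10 and -0.11 ± 0.09.

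For other eIF2 kinases, eIF2, its exchange factor eIF2B and its phosphatase, 12 genes were read, with 0 called and a median of -0.050. Of the 12, 2 were under an unadjusted p of 0.05, both negative (4.27% of all tested genes). These were the eIF2B subunits Eif2b4 at -0.25 ± 0.10 and Eif2b3 at -0.22 ± 0.09. Eif2b2 had -0.11 ± 0.10 and the phosphatase adaptor Ppp1r15b 0.20 ± 0.12. Heat shock genes outside the ER are driven by Hsf1 rather than by the ER sensors. A list of 17, Hsf1 itself and the mitochondrial Hspd1 included, had 4 positive and 13 negative log2 differences (median -0.094). None was called and 1 was under an unadjusted p of 0.05, with a negative sign (4.27% of all tested genes). This was Hsph1, with 46.7 ± 2.84 CPM in Plg KO and 59.4 ± 9.17 CPM in Plg WT. Hsf1, Hspb8 and Hspd1 had log2 differences of -0.21 ± 0.10, -0.12 ± 0.08 and -0.14 ± 0.11. Plg WT 2 and 3 were the lowest libraries in 0 of these 17 genes, against 18 of the 33 members and 12.8% of all tested genes.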

How the data were processed

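RNA sequencing counts of 6 gingiva libraries were used, 3 Plg KO and 3 Plg WT, grouped by their titles. Per the labels' protocols, Nextera XT libraries, which do not mark strand, were read as 37 bp pairs. The submitters' processing notes name the builds GRCm38.p3 and mm10 and the tools DESeq2, STAR 2.5.2a, limma and edgeR, with no role stated. How reads were counted was not recorded there. The authors deposited raw counts for 48709 genes (22 non-gene entries, at most 3.55e-05% of a library, were left out) and TMM-scaled CPM for 21948 genes, which supplied 21658 names. GENCODE M21 supplied 26691 names and all positions, on GRCm38. CPM values gave whole reads in 100% of cases (tolerance 0.01 read), equal to the counts, and were tested as an alternative added after seeing the data.

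The main test was edgeR 4.0.16 (R 4.3.3): TMM, filterByExpr (17757 genes), quasi-likelihood F test on genotype, Benjamini-Hochberg adjustment over all of them, calls at an adjusted p under 0.05. The SE is the log2 difference divided by the root of F, and 95% intervals use the fit's t quantile. Scores used a pseudocount of 0.5 CPM. The members and lists were chosen with earlier results of these data known. All 33 members are named, with the 4 genes of smallest p per further list. Alternatives were DESeq2 1.42.0, limma-voom (limma 3.58.1), other scalings and filters, the replicate number as a block and leaving out each library. Scripts were tested on simulated data. At these depths 3 counts equal 0.0824 to 0.115 CPM, for counting error only. Exon bases shared with another gene, at most 10.3% of a member (Hsp90b1), occur in 11 members, in 10 of them with a gene on the opposite strand. Reads from shared bases cannot be assigned to 1 gene in these unstranded libraries. Any pair of libraries differed beyond sampling noise (chi-square per degree of freedom 21.4 to 111.4).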

Additional observations from a re-analysis of the deposited data

How the results depend on the processing

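No member was called in the reported fit, with limma-voom, with RLE or upper-quartile scaling, without a filter, with a stricter filter, with the replicate block or at an adjusted p under 0.10. Reads recovered from CPM equal the counts, so that alternative gives the same fit by construction and is no check. DESeq2 called 1 higher (Asns). Leaving out single libraries gave 0 to 2 members called higher (2 without Plg WT 1) and 0 lower. Over all genes, 34 higher and 8 lower became 275 and 128 with DESeq2, 122 and 40 without a filter, 2 and 0 with the replicate block, 95 and 26 at an adjusted p under 0.10, and 1 to 184 higher and 1 to 35 lower without single libraries (184 and 35 without Plg WT 1, at most 2 each without Plg KO 2, Plg KO 3, Plg WT 2 or Plg WT 3). Members at an unadjusted p under 0.05 numbered 4 higher and 0 lower as reported, 8 higher without a filter, 1 to 15 higher and 0 to 1 lower without single libraries, and 1 lower (Chac1) with DESeq2, upper-quartile factors, no filter or without Plg WT 3. All genes at that p numbered 467 lower with the replicate block, and 484 to 1046 lower and 637 to 1548 higher without single libraries. Deviations from the group means of same-numbered libraries correlated at -0.26, -0.01 and -0.22 over 17757 genes. This cannot show whether the replicate numbers pair the libraries, since gland, muscle and sex-linked transcripts also differ between them.

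The median log2 difference ran from 0.24 to 0.67 for sensors and factors and from -0.11 to 0.015 for Atf4 targets without single libraries. Chaperones minus Atf4 targets gave 0.44 with medians over the lists in place of means, and 0.070 to 0.27 without single libraries. Of the 33 members 23 kept their sign in all 14 alternatives (the recovered reads included) and 10 did not, none of which was called. Without single libraries, the log2 difference ran from -0.11 to 0.18 for Hspa5, -0.061 to 0.10 for Canx, -0.0097 to 0.43 for Sdf2l1, -0.22 to 0.14 for Creld2, -0.18 to 0.15 for Manf, -0.019 to 0.27 for Hyou1, -0.0032 to 0.049 for Atf4, -0.070 to 0.044 for Ppp1r15a, -0.11 to 0.13 for Syvn1, -0.094 to 0.086 for Derl2. Other settings turned Creld2 (-0.00040 with limma-voom and -0.00091 with the replicate block) and Atf4 (-0.0022 with upper-quartile factors). The cause was not tested. At 3 libraries a group the median SE of a member's log2 difference was 0.14, so differences of the size seen in most members could not be told from 0.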
